A study of Brachypodium distachyon with 12 samples.

Results

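The basic helix-loop-helix (bHLH) family is among the largest families of plant transcription factors. Its proteins bind DNA as dimers, with a basic region that reads E-box and G-box elements and a helix-loop-helix region that joins the partners. Family members act at branch points of plant development and physiology, among them the making of root hairs and stomata, the response to light, the uptake of iron, jasmonate signalling and the growth response to brassinosteroids. The members described here are the genes whose deposited description names a helix-loop-helix DNA-binding domain, with case ignored. This rule took 120 of the 39068 genes in the deposited table and used no measured value. The members lie on chromosomes 1 to 5 of the Bd21-3 annotation, with 35, 21, 37, 20 and 7 genes in that order.

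Gene names are the best matches that the deposited table pairs with each identifier, mostly proteins of Arabidopsis or rice, which gives a likeness of sequence, and no function was tested in Brachypodium. Of the 120 members, 114 had such a match and 6 had none. The 114 genes shared 61 distinct matches, and 85 of them shared a match with at least 1 other member. The counting of reads shared by related genes is not given in the labels or the processing notes, so the split of reads between such relatives is uncertain.

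The plants were wild-type Brachypodium distachyon of the line Bd21-3, a small model grass related to wheat and barley. They grew hydroponically in vessels of 40 mL of 0.5-strength MS medium with 2 seedlings each, at 22 °C, 50% humidity and 150 µmol per square metre per second of light for 16 h in each day. Whole roots and shoots were taken at week 2 and at week 4, which gave 4 groups of 3 libraries, and the labels describe the replicates as coming from different plants. No treatment, mutant or transgene was part of the design, so the groups differ by organ and by age, and age cannot be told apart from the time spent in the vessel and the date of harvest.

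Total counts ranged from 17261299 to 24186744 per library. Levels are CPM, counts per 1e6 counts of TMM-adjusted library size, and 26463 genes passed the filter on low counts. Of the 120 members, 97 passed. The other 23 had at most 72 counts over the 12 libraries together, and 9 of them had none. The organ labels were checked with marker genes. The summed level of 11 genes with a root cap domain was 636 to 836 CPM in root libraries and 0.953 to 2.97 CPM in shoot libraries. The summed level of 27 genes for chlorophyll a-b binding proteins was 63228 to 86379 CPM in shoots, 1119 to 2299 CPM in roots at week 2 and 6411 to 7332 CPM at week 4. On the second principal component of all tested genes, which held 11.7% of the variance, week 4 shoot replicate 1 scored -18.4, while the other two week 4 shoots scored -87.4 and -113 and the week 2 shoots 77.7 to 94.6. This library therefore lay between the ages, and values without it are given beside the named results of week 4 shoots that moved most on leaving it out.

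Most bHLH genes differed between roots and shoots, and those higher in roots outnumbered those higher in shoots. At week 2, 73 of the 97 tested members passed the test (edgeR quasi-likelihood test, adjusted p under 0.05 over all tested genes), which was 75.3% against 56.1% of all tested genes. Of these, 43 were higher in roots (44.3% against 28.4% of all genes) and 30 were lower (30.9% against 27.7%). At week 4, 79 members passed (81.4% against 60.9%), 49 of them higher in roots (50.5% against 32.4%) and 30 lower (30.9% against 28.5%). Root and shoot libraries did not overlap for 75 members at week 2 (77.3% against 65.0%) and for 81 at week 4 (83.5% against 67.0%). The median log2 difference (the fitted log2 fold change, given with its standard error, SE, for single genes) of root over shoot was 0.33 at week 2 and 0.65 at week 4, beside 0.01 and 0.04 over all tested genes. A gene that passed the filter through 1 organ alone had to differ, so these shares describe the tested members and not the whole family. The same holds for the role lists below, and for changes with age in genes that passed through 1 week alone. Without week 4 shoot replicate 1, 78 members passed at week 4. In whole organs, fewer cells of a type and less RNA per cell cannot be told apart.

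The organ pattern was shared by the ages. At both weeks, 42 members were higher in roots (43.3% against 23.9% of all genes), 22 were lower (22.7% against 22.3%), and 0 passed with opposite signs (0.359% of all genes). The Pearson correlation of log2 CPM over the 97 members was 0.917 to 0.984 between libraries of a group, 0.800 to 0.969 between weeks of an organ and 0.372 to 0.549 between organs. These are descriptions across genes of shared libraries, not tests.

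**Figure D1:**
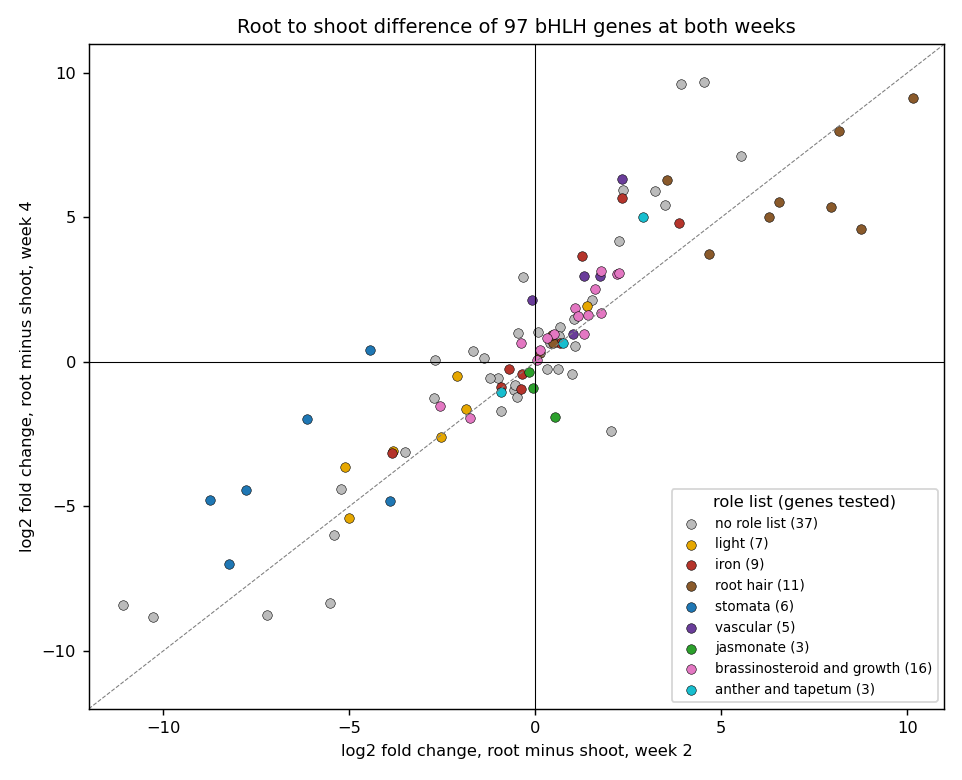
Log2 fold change of root over shoot at week 2 (horizontal axis) and at week 4 (vertical axis) for the 97 tested bHLH genes, 1 point per gene, coloured by role list, with the dashed line marking equal values. Most root hair genes lie at the upper right, with 3 near the origin, and 5 of 6 stomatal genes lie at the lower left, while the ICE1 match on chromosome 4 lies just above 0 at week 4. Genes with a group at 0 counts are drawn at their fitted value, which depends on the prior count.

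The summed level of the family was of the same order in each group, with no test run on it. Summed over all 120 members, CPM was 1597 ± 27.9 in roots of week 2, 1721 ± 8.40 in those of week 4, 1487 ± 170.3 in shoots of week 2 and 1948 ± 126 in those of week 4 (mean ± SD, n = 3). Which members made up that sum differed between organs. Per kilobase of gene length, the 5 most abundant members took 31.6% of the family sum in roots of week 2, 37.0% in those of week 4, 30.2% in shoots of week 2 and 35.2% in those of week 4. At least 10 counts in each of the 3 libraries were seen for 79 members in roots of week 2, 79 in those of week 4, 81 in shoots of week 2 and 61 in those of week 4, while 0, 2, 0 and 5 members in that order reached a mean of 100 CPM. Within week 4 shoots, replicate 1 had at least 10 counts for 78 members and the other two for 66 each. Members with no count in any library of a group numbered 20, 25, 18 and 18 in the same order of groups.

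Root hair factors had the highest median root to shoot difference of the role lists. In Arabidopsis, RHD6 (bHLH83) and RSL1 (bHLH86) give epidermal cells the root hair fate, the later RSL factors (bHLH84, bHLH85, bHLH54 and bHLH139) drive hair growth, and the LRL factors (bHLH66, bHLH69 and bHLH82) act beside them. Of 14 members with such best matches, 11 were tested. At week 2, 9 of the 11 were higher in roots (81.8% against 28.4% of all tested genes) and 0 lower. At week 4, 10 were higher (90.9% against 32.4%) and 0 lower. The bHLH83, bHLH84, bHLH86 and bHLH139 matches among them passed the filter through roots alone. Their being higher in roots was therefore largely fixed by that filter. The list's median log2 difference was 6.28 at week 2 and 5.01 at week 4, and 4.82 and 4.59 with genes at 0 counts set to the bound that 3 counts over the group allow. The whole list summed to 122 ± 8.87 CPM in roots of week 2, 86.9 ± 8.17 in those of week 4, 53.1 ± 2.48 in shoots of week 2 and 37.3 ± 2.92 in those of week 4.

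Among the fate factors, the RHD6 match BdiBd21-3.2G0011000 (chromosome 2, 594525 to 597906) had CPM of 13.5, 13.8 and 11.8 in week 2 roots and 4.98, 6.65 and 8.63 in week 4 roots. Its shoot libraries held 0.101, 0.279 and 0 CPM at week 2 and 0, 0.0569 and 0.371 at week 4. No root library overlapped a shoot library, and the gene was higher in roots at week 2 (log2 difference 6.56, SE 0.67, adjusted p = 6.51e-06) and at week 4 (log2 difference 5.55, SE 0.67, adjusted p = 2.46e-05). With few shoot counts the size of this gap moved with single libraries, to 7.79 without week 2 shoot replicate 2, and to 4.87 and 7.71 at week 4 without shoot replicate 1 or 3. The RSL1 match BdiBd21-3.3G0702000 (chromosome 3, 53805262 to 53807106) had 4.63, 3.18 and 5.22 CPM in roots at week 2 and 2.61, 1.43 and 3.07 at week 4, and counts in 1 of 3 shoot libraries at each week. Its root to shoot difference passed at week 2 (ratio 86.5, 95% counting interval 28.8 to 414, adjusted p = 5.92e-05) and at week 4 (log2 difference 5.01, SE 0.83, adjusted p = 0.000261). All of its week 4 shoot counts came from replicate 1, and the value fitted against 0 counts without that library was 8.65.

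All 4 genes with the RSL3 factor bHLH84 as best match were higher in roots at both weeks, beside 28.4% of all tested genes at week 2 and 32.4% at week 4. The most abundant per kilobase was BdiBd21-3.1G0299300 (chromosome 1, 18561254 to 18563367), with 6.51, 6.71 and 6.54 CPM in roots at week 2, 3.61, 4.10 and 1.89 at week 4, and no count in any of the 6 shoot libraries. Against the floor of 3 counts over a group, it was higher in roots at week 2 (at least 132-fold, adjusted p = 8.39e-06) and at week 4 (at least 61.8-fold, adjusted p = 2.1e-05). This was the highest fitted fold change of any member at week 2. Its relative BdiBd21-3.1G0953800 (chromosome 1, 69703980 to 69705871) also had 0 counts in every shoot library, beside 0.918, 2.26 and 1.77 CPM in roots at week 2 and 1.24, 1.73 and 1.35 at week 4. The bHLH139 match BdiBd21-3.4G0039400 (chromosome 4, 2346817 to 2351496) likewise had 0 counts in shoots, with 1.62, 1.46 and 1.17 CPM in roots at week 2 and 0.207, 0.0751 and 0.421 at week 4.

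The LRL matches differed among themselves. The bHLH82 match BdiBd21-3.1G0622000 (chromosome 1, 46295738 to 46298258) had 16.1, 24.3 and 21.2 CPM in roots at week 2 and 6.84, 10.8 and 13.9 at week 4, against 0.603, 0.743 and 1.08 and 1.07, 0.455 and 0.794 in shoots of the same ages (week 2 log2 difference 4.67, SE 0.36, adjusted p = 4.76e-07). A second bHLH82 match, BdiBd21-3.3G0715300 (chromosome 3, 54607690 to 54611196), had 28.5, 24.3 and 15.5 CPM in week 2 roots and 21.5, 19.1 and 21.3 in week 2 shoots, and these groups overlapped. Genes that share a best match thus differed in organ pattern. The bHLH66 match BdiBd21-3.1G0614000 (chromosome 1, 45721864 to 45725798) was present throughout, with 20.7, 23.2 and 27.4 CPM in week 4 roots and 12.0, 13.5 and 19.4 in week 4 shoots (log2 difference 0.67, SE 0.19, adjusted p = 0.00834).

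With age, all but 1 of the 11 root hair genes had a negative fitted change in roots, but 2 passed the test (18.2% against 6.35% of all tested genes). This count was 4 without week 4 shoot replicate 1 and 5 in the DESeq2 test, and 0 on leaving out replicate 2 of the week 2 roots or replicate 1 or 2 of the week 4 roots. The bHLH82 match BdiBd21-3.1G0622000 fell (log2 difference -0.97, SE 0.29, adjusted p = 0.0383), a call lost without week 2 root replicates 2 or 3 or week 4 root replicates 1 or 2 (adjusted p up to 0.138). The bHLH139 match BdiBd21-3.4G0039400 fell as well (log2 difference -2.58, SE 0.64, adjusted p = 0.0307), a call lost without week 2 root replicates 1, 2 or 3 or week 4 root replicates 1 or 2 (adjusted p up to 0.115). The RHD6 match had no overlap between the weeks in roots, yet its change did not pass (log2 difference -0.95, SE 0.45, adjusted p = 0.163).

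**Figure D2:**
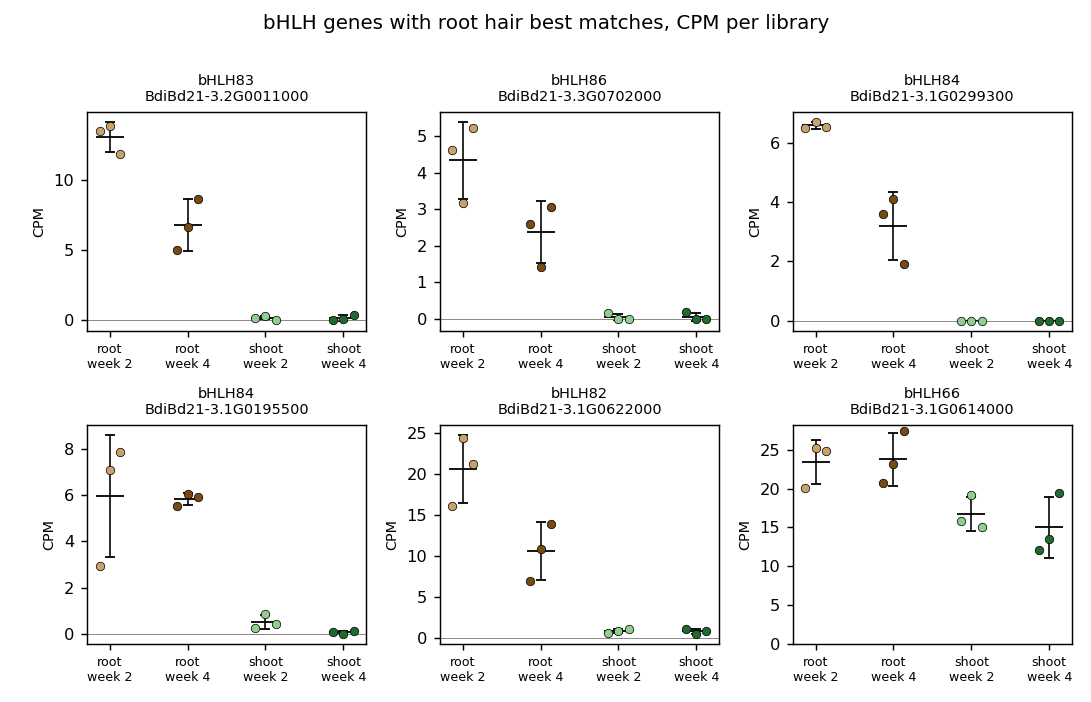
CPM per library of 6 bHLH genes with root hair best matches, by organ and week, with points for the 3 libraries of a group and bars for the mean ± SD. The bHLH83, bHLH86, bHLH84 and bHLH82 matches sit near 0 in all shoot libraries, while the bHLH66 match is present in both organs.

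Stomatal factors were higher in shoots than in roots at week 2, and most were lower in older shoots. In Arabidopsis, SPEECHLESS starts the stomatal lineage, MUTE ends its dividing phase and FAMA completes guard cells, each in a dimer with ICE1 (SCREAM) or its relative. In grasses, stomata form in files at the base of the growing leaf, and in Brachypodium MUTE also moves into neighbouring cells to make subsidiary cells. All 6 members with these best matches were tested. At week 2, 6 of 6 were lower in roots than in shoots (100% against 27.7% of all tested genes). At week 4, 3 of 6 were (50% against 28.5%). The MUTE match was the one of these 3 whose week 4 call was lost without any 1 of 8 libraries, week 4 shoot replicate 1 among them (adjusted p up to 0.144). From week 2 to week 4, 5 of 6 fell in shoots (83.3% against 19.4% of all tested genes). Of these 5 calls, 3 held under every alternative that tested the genes, as they did without week 2 or week 4 shoot replicate 2. The SPEECHLESS and MUTE matches passed the filter through week 2 shoots alone. Their being lower in roots and in week 4 shoots was therefore largely fixed by that filter. The list's median log2 change in shoots was -2.82 beside 0 over all tested genes, and its summed level went from 65.1 ± 8.14 to 22.8 ± 5.64 CPM.

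The lineage starters were rare and nearly gone from older shoots. The SPEECHLESS match BdiBd21-3.3G0131200 (chromosome 3, 8011472 to 8014405) had 1.91, 1.49 and 0.916 CPM in week 2 shoots and 0.0465, 0 and 0 in week 4 shoots. It fell with age (week 4 to week 2 ratio 0.0108, 95% counting interval 0.000298 to 0.0680, adjusted p = 0.00161), and had no week 4 shoot count outside replicate 1. A second SPEECHLESS match, BdiBd21-3.1G0523400 (chromosome 1, 35297386 to 35300858), had 3.32, 2.93 and 1.08 CPM in week 2 shoots, 0.418, 0 and 0 in week 4 shoots and 0 counts in all root libraries. Its fall (log2 difference -3.98, SE 1.09, adjusted p = 0.0269) was lost without week 2 shoot replicate 1 or 2 or week 4 shoot replicate 2 or 3 (adjusted p up to 0.0761), and in the DESeq2 test (adjusted p = 0.33). Without week 4 shoot replicate 1, which held all its week 4 shoot counts, the value fitted against 0 counts was -8.79. The MUTE match BdiBd21-3.1G0240400 (chromosome 1, 14867361 to 14868785) had 1.36, 1.53 and 0.862 CPM in week 2 shoots, 0.232, 0.114 and 0 in week 4 shoots and 0 counts in roots. It fell with age (log2 difference -3.34, SE 0.83, adjusted p = 0.0184), a call lost on leaving out week 2 shoot replicate 2 or week 4 shoot replicate 2 (adjusted p up to 0.062), with a change of -4.40 without week 4 shoot replicate 1. In all 3 genes the single highest week 4 value came from replicate 1, the library that lay between the ages.

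The late factor FAMA was the exception. Its match BdiBd21-3.2G0300000 (chromosome 2, 20210501 to 20213055) had 9.15, 8.92 and 6.74 CPM in week 2 shoots and 8.73, 8.82 and 10.3 in week 4 shoots, and these groups overlapped. Its root values were 1.09, 0.345 and 0.203 at week 2 and 0.498, 0.225 and 0.253 at week 4, below every shoot value (week 4 log2 difference -4.82, SE 0.48, adjusted p = 4.08e-06). The fold change of FAMA with age in shoots was not distinguishable from 0 (log2 difference 0.17, SE 0.37, adjusted p = 0.762), and whether it differed from that of the other stomatal genes was not tested.

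The 2 ICE1 matches differed most in roots. The gene BdiBd21-3.2G0762000 (chromosome 2, 56693599 to 56697099) had 3 counts or fewer over each root group, and 13.5, 16.4 and 14.5 CPM in week 2 shoots and 6.36, 5.86 and 5.30 in week 4 shoots. It was lower in roots at week 2 (root to shoot ratio 0.00259, 95% counting interval 0.000605 to 0.00862, adjusted p = 1.01e-07) and fell in ageing shoots (log2 difference -1.34, SE 0.32, adjusted p = 0.00769). The gene BdiBd21-3.4G0254800 (chromosome 4, 18824932 to 18828241) had 0.612, 1.19 and 3.45 CPM in roots at week 2 and 6.55, 12.5 and 11.2 at week 4. Its shoot values were 40.2, 38.9 and 31.6 at week 2 and 13.5, 5.75 and 3.07 at week 4, so the organs stood far apart at week 2 and overlapped at week 4. It fell in shoots (log2 difference -2.30, SE 0.59, adjusted p = 0.0131), by 3.10 without week 4 shoot replicate 1. It rose in roots (log2 difference 2.56, SE 0.63, adjusted p = 0.0205), a call lost without week 2 root replicates 1 or 2 or week 4 root replicate 2 (adjusted p up to 0.0786), with a change of 3.46 without week 2 root replicate 3. It was the 1 member that passed with opposite signs in the organs (1.03% of the tested members against 0.967% of all genes), and the difference between its changes was itself past the threshold (log2 difference 4.86, SE 0.86, adjusted p = 0.00963), at 5.77 without replicate 3 of the week 2 roots and 5.62 without replicate 1 of the week 4 shoots.

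Epidermal patterning factors, secreted peptides that act upstream of the stomatal bHLH proteins, are not members but belong to the same pathway. Of 10 tested, 7 were lower in roots (70% against 27.7% of all tested genes) and 0 higher at week 2. At week 4, 3 were lower, near the share of all tested genes (30% against 28.5%), and 1 was higher (10% against 32.4%). From week 2 to week 4, 5 fell in shoots (50% against 19.4%) and 0 rose. Their summed level in shoots was 45.4 ± 2.14 CPM at week 2 and 9.89 ± 5.58 CPM at week 4.

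**Figure D3:**
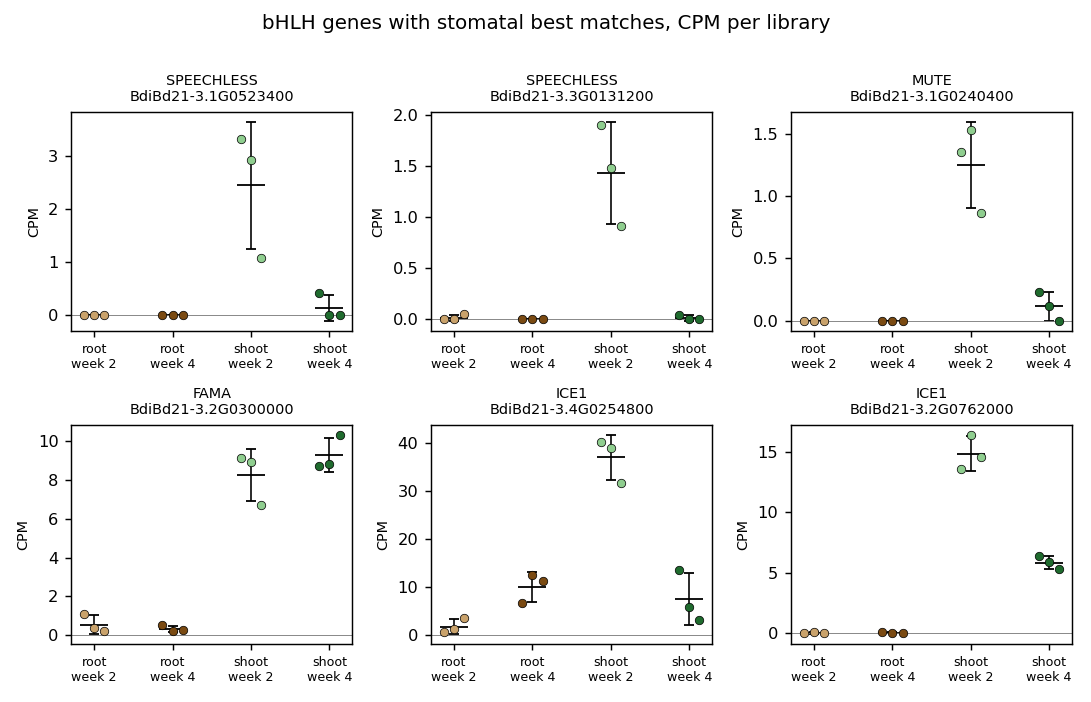
CPM per library of the 6 bHLH genes with stomatal best matches, by organ and week, with points for the 3 libraries of a group and bars for the mean ± SD. Week 4 shoots lie below week 2 shoots in 5 panels, FAMA overlaps, and the ICE1 match on chromosome 4 is the one whose week 4 root values lie well above its week 2 root values.

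Light-response factors of the PIF type were mostly shoot genes, and the more abundant of them rose with age. Phytochrome-interacting factors are bHLH proteins that promote growth in darkness and shade and that light-activated phytochromes mark for breakdown. PIF1 restrains germination and greening in Arabidopsis, and UNE10 is also known as PIF8. Of 8 members with light best matches, 7 were tested. At week 2, 6 of them were lower in roots (85.7% against 27.7% of all tested genes) and 1 higher (14.3% against 28.4%). At week 4, 5 were lower (71.4% against 28.5%) and 1 higher (14.3% against 32.4%). The list's median log2 difference of root over shoot was -2.53 at week 2 and -2.59 at week 4. Its summed level was 19.8 ± 0.309 CPM in roots of week 2, 53.2 ± 14.2 in those of week 4, 253 ± 34.9 in shoots of week 2 and 562 ± 73.3 in those of week 4. Per kilobase, these genes went from 0.815% of the family's RNA in week 2 roots and 1.72% in week 4 roots to 11.7% in week 2 shoots and 20.1% in week 4 shoots.

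In ageing shoots, 4 of the 7 rose (57.1% against 14.5% of all tested genes) and 3 fell (42.9% against 19.4%). Only 3 in all passed without any 1 of replicates 1 and 2 of week 2 and 2 and 3 of week 4. The PIF1 match BdiBd21-3.1G0186500 (chromosome 1, 10986372 to 10994604) had 59.2, 74.2 and 97.6 CPM in week 2 shoots and 165, 226 and 222 in week 4 shoots, with no overlap. Its rise (log2 difference 1.41, SE 0.42, adjusted p = 0.0261) was lost without week 2 shoot replicates 1 or 2 or week 4 shoot replicates 2 or 3 (adjusted p up to 0.0863). The UNE10 match BdiBd21-3.3G0433900 (chromosome 3, 35435798 to 35441446) went from 59.0, 72.0 and 80.0 to 169.9, 178 and 223 CPM (log2 difference 1.43, SE 0.21, adjusted p = 0.000759). A further PIF1 match, BdiBd21-3.1G0089600 (chromosome 1, 4625075 to 4627819), went from 54.2, 51.9 and 60.5 to 90.8, 122 and 105 CPM (log2 difference 0.93, SE 0.14, adjusted p = 0.000757). The rises of these last genes held under every alternative run. The rice factor APG, a member of the PIF group known for restraining grain length, was not in the list. Of its 2 matches, 1 rose in shoots and 1 fell. The match BdiBd21-3.2G0147300 (chromosome 2, 9164073 to 9167161) had 74.2, 60.2 and 71.8 CPM in week 2 shoots and 146, 176 and 132 in week 4 shoots (log2 difference 1.14, SE 0.16, adjusted p = 0.000527). The match BdiBd21-3.2G0463300 (chromosome 2, 36681339 to 36684174) went from 31.8, 20.5 and 18.5 to 18.0, 10.6 and 8.42 CPM in shoots (log2 difference -0.93, SE 0.31, adjusted p = 0.0371), with -1.35 without week 4 shoot replicate 1. That call was lost without 8 of the libraries in turn and when the shoot libraries were fitted alone (adjusted p up to 0.128).

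The 3 light-list genes that fell in shoots were rare. The SPATULA match BdiBd21-3.1G0639700 (chromosome 1, 47489488 to 47493666), named for an Arabidopsis factor of carpel growth, fell from 0.955, 0.976 and 0.539 to 0.232, 0.341 and 0.159 CPM (log2 difference -1.74, SE 0.43, adjusted p = 0.00953). This gene model also carries reverse transcriptase domains, so its reads may not all come from a bHLH gene. It was the 1 light-list gene higher in roots, with 2.67, 1.92 and 1.88 CPM in roots at week 2 and 0.871, 0.789 and 1.14 at week 4 (week 2 log2 difference 1.38, SE 0.36, adjusted p = 0.00648).

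Light-list genes were low in roots, where 3 of 7 rose (42.9% against 12.4% of all tested genes) and 1 fell (14.3% against 6.35%). When any week 2 root or week 4 root replicate 1 was left out, 2 calls were left, both rises. The PIF1 match BdiBd21-3.1G0186500 went from 0.787, 2.15 and 3.80 to 25.5, 11.7 and 12.8 CPM in roots (log2 difference 2.91, SE 0.48, adjusted p = 0.00372). The UNE10 match went from 5.81, 4.41 and 4.61 to 30.4, 16.2 and 21.3 CPM (log2 difference 2.19, SE 0.23, adjusted p = 0.000463), and the APG match BdiBd21-3.2G0147300 from 7.12, 6.06 and 4.87 to 20.1, 17.0 and 15.0 (log2 difference 1.53, SE 0.17, adjusted p = 0.000482). The other APG match did not pass in roots (log2 difference -0.26, SE 0.31, adjusted p = 0.59). In the PIF1 match BdiBd21-3.1G0186500, the UNE10 match and the APG match BdiBd21-3.2G0147300, week 4 root values lay above every week 2 root value and below every shoot value. The chlorophyll a-b binding genes, markers of green tissue, rose in roots as well, in 17 of 26 tested (65.4% against 12.4% of all tested genes), and 0 fell. Their summed root level was 2.39% of the shoot level at week 2 and 9.31% at week 4. The root level of the PIF1 match BdiBd21-3.1G0186500 was 2.92% of its shoot level at week 2 and 8.16% at week 4, that of UNE10 7.03% and 11.9%, and that of the APG match BdiBd21-3.2G0147300 8.75% and 11.5%. The PIF1 match BdiBd21-3.1G0089600, the remaining light-list gene that rose in roots, was at 3.08% and 2.37%. Its root rise (log2 difference 0.55, adjusted p = 0.0484) was lost under 17 of 19 alternatives (adjusted p up to 0.244). The part of green tissue in these rises was not tested. Of the phytochrome genes themselves, 3 of 4 were tested, and 1 rose in roots (33.3% against 12.4% of all tested genes) and 0 fell. In ageing shoots 0 of them rose and 1 fell (33.3% against 19.4%).

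**Figure D4:**
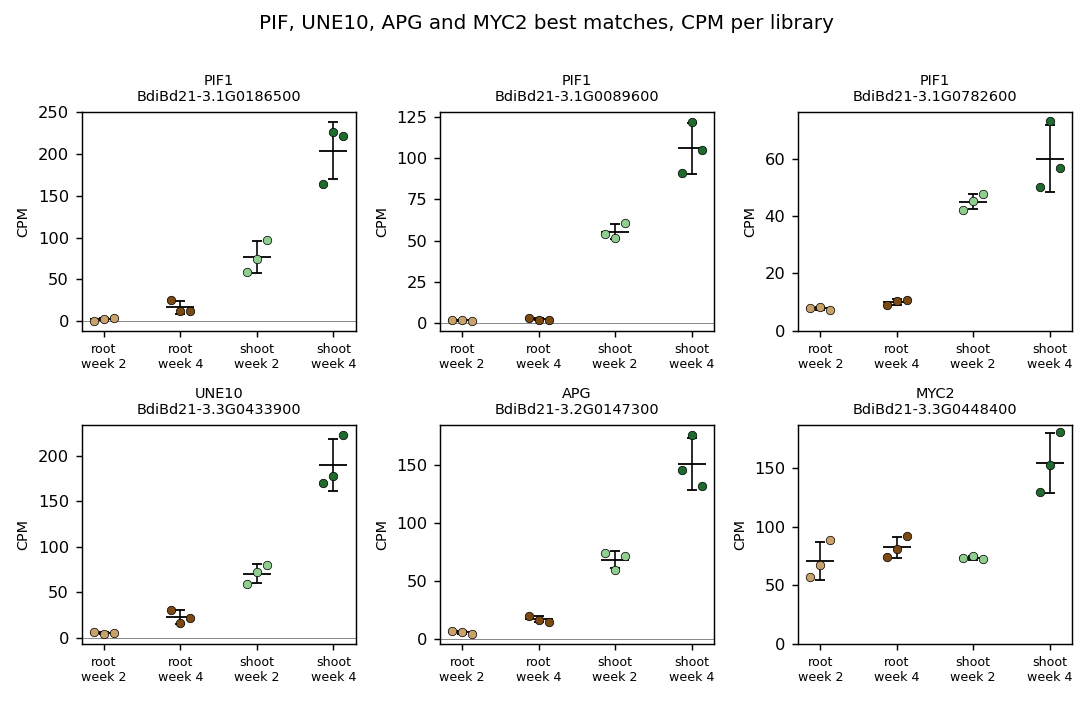
CPM per library of 5 PIF-type genes and of the MYC2 match, by organ and week, with points for the 3 libraries of a group and bars for the mean ± SD. All PIF-type genes shown are higher in both shoot groups than in both root groups, and the MYC2 match is higher in week 4 shoots than elsewhere.

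Iron-response factors held the most abundant member per kilobase in every group. In Arabidopsis, ILR3 and its relatives activate the genes of the bHLH38, bHLH39, bHLH100 and bHLH101 group, whose products pair with FIT to switch on iron uptake in the root, and bHLH121 acts upstream of both. All 9 members with iron best matches were tested. At week 2, 3 were higher and 3 lower in roots (33.3% each), near the 28.4% and 27.7% of all tested genes. At week 4, 4 were higher and 4 lower (44.4% each, against 32.4% and 28.5%). Per kilobase they took 31.9% ± 1.82 of the family's RNA in roots of week 2, 32.6% ± 3.78 in those of week 4, 34.1% ± 7.35 in shoots of week 2 and 29.0% ± 1.28 in those of week 4.

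The 4 ILR3 matches were split between the organs. The gene BdiBd21-3.2G0310100 (chromosome 2, 20962604 to 20964736) had the highest level per kilobase of any member in roots, 70.4 CPM per kilobase at week 2 and 98.0 at week 4. Its CPM was 82.5, 101 and 91.1 in week 2 roots and 61.0, 52.4 and 59.5 in week 2 shoots (log2 difference 0.67, SE 0.11, adjusted p = 0.000239), and it rose with age in roots (log2 difference 0.48, SE 0.11, adjusted p = 0.0109) and in shoots (log2 difference 0.48, SE 0.11, adjusted p = 0.00571). The gene BdiBd21-3.3G0018200 (chromosome 3, 1153631 to 1156300) went the other way between organs, with 32.1, 30.4 and 32.3 CPM in week 2 roots and 59.9, 56.7 and 63.1 in week 2 shoots (log2 difference -0.92, SE 0.09, adjusted p = 3.21e-06). It too rose with age in roots (log2 difference 0.45, SE 0.09, adjusted p = 0.00574) and in shoots (log2 difference 0.39, SE 0.09, adjusted p = 0.00579). In shoots the most abundant member per kilobase was the ILR3 match BdiBd21-3.1G0333800 (chromosome 1, 20975766 to 20978710), at 53.8 CPM per kilobase at week 2 and 66.5 at week 4.

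Of the factors below ILR3, the FIT and ORG3 matches were higher in roots at both weeks. The FIT match BdiBd21-3.5G0087800 (chromosome 5, 10427496 to 10430149) had 39.2, 30.4 and 36.5 CPM in roots at week 2 and 32.1, 34.4 and 15.3 at week 4. Its shoot values were 3.72, 2.04 and 1.45 and 0.604, 1.71 and 0.688, and the organs did not overlap (week 2 log2 difference 3.87, SE 0.44, adjusted p = 2.19e-05). The ORG3 match BdiBd21-3.3G0571000 (chromosome 3, 44502764 to 44518902), named for the Arabidopsis protein also called bHLH39, had 16.0, 19.8 and 11.9 CPM in week 4 roots and 0.418, 0.228 and 0.265 in week 4 shoots (log2 difference 5.66, SE 1.09, adjusted p = 0.00118). Its week 2 call was less firm (log2 difference 2.34, SE 0.86, adjusted p = 0.0394). That call was lost under 12 of 19 alternatives, 10 of them with a single library left out (adjusted p up to 0.143).

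Both bHLH100 matches, neighbours on chromosome 2, were high in a single week 2 shoot library. The gene BdiBd21-3.2G0783300 (chromosome 2, 57767052 to 57769838) had 98.1, 3.44 and 3.77 CPM in week 2 shoots, beside 119.5, 52.4 and 80.7 in week 2 roots. The gene BdiBd21-3.2G0782400 (chromosome 2, 57726421 to 57728841) had 143, 1.77 and 7.38 CPM in week 2 shoots and 10.3, 0 and 0.203 in week 2 roots. Replicate 1 was thus the highest of the week 2 shoots in both genes, as it was for ORG3 and FIT, and the root to shoot differences of the bHLH100 matches at week 2 did not pass (log2 difference 1.26, SE 1.08, adjusted p = 0.35, and log2 difference -3.85, SE 1.68, adjusted p = 0.0763). At week 4 the gene BdiBd21-3.2G0783300 was higher in roots (log2 difference 3.66, SE 1.22, adjusted p = 0.0244), a call lost without week 4 root replicates 1 or 2 or week 4 shoot replicates 1, 2 or 3 (adjusted p up to 0.0852). The gene BdiBd21-3.2G0782400 had 1.70, 1.95 and 0.842 CPM in week 4 roots, below the 11.5, 16.2 and 12.3 CPM of week 4 shoots, but did not pass (log2 difference -3.14, SE 1.72, adjusted p = 0.141). Nicotianamine synthases and aminotransferases, which make iron chelators of grasses and are targets of the rice iron factors, were also uneven: their summed level in week 2 roots was 386 to 1845 CPM, with the top value in root replicate 1. Of 10 tested, 8 were higher (80% against 28.4% of all tested genes) and 2 lower (20% against 27.7%) in roots at week 2. With age in roots, 4 fell (40% against 6.35%) and 1 rose (10% against 12.4%).

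Among the jasmonate factors, a match to MYC2 was the most abundant and the 1 whose change with age in shoots passed. MYC2 is the central activator of jasmonate responses in Arabidopsis, and bHLH13, bHLH14 and AIB (bHLH17) restrain the same targets. Of 7 members with such matches, 3 were tested; the 3 bHLH14 matches, which lie side by side on chromosome 3, and a second MYC2 match had at most 11 counts each. At week 2, 0 of the 3 passed between organs (0 also at an unadjusted p under 0.05 and 0 in the DESeq2 test, but 1 without week 2 root replicate 1). At week 4, 3 were lower in roots (100% against 28.5% of all tested genes). Of these calls, 1 held on leaving out week 4 root replicate 2 or week 4 shoot replicate 1. The MYC2 match BdiBd21-3.3G0448400 (chromosome 3, 36537628 to 36540423) had 73.3, 75.2 and 71.9 CPM in week 2 shoots and 129.7, 153 and 180.2 in week 4 shoots. In roots it had 56.9, 67.2 and 88.5 CPM at week 2 and 74.1, 81.2 and 91.6 at week 4. The week 4 shoots lay above all other libraries, and the gene rose in shoots (log2 difference 1.07, SE 0.16, adjusted p = 0.000775) and was lower in roots at week 4 (log2 difference -0.91, SE 0.16, adjusted p = 0.000415). The bHLH13 match BdiBd21-3.2G0105800 (chromosome 2, 6426412 to 6429938) had overlapping shoot groups, with 41.6, 35.0 and 36.5 CPM in week 2 shoots and 37.8, 35.2 and 33.4 in week 4 shoots. The AIB match BdiBd21-3.2G0610700 (chromosome 2, 47566299 to 47568385) had 11.5, 5.30 and 3.56 CPM in week 2 shoots and 27.8, 14.7 and 20.6 in week 4 shoots. Its shoot groups did not overlap, but this rise did not pass (log2 difference 1.63). TIFY or JAZ proteins are the repressors that bind MYC2 and whose genes it switches on in Arabidopsis. In ageing shoots 9 of 18 tested rose (50% against 14.5% of all tested genes) and 0 fell. Their summed shoot level was 579 ± 37.2 CPM at week 2 and 949 ± 85.1 CPM at week 4.

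The brassinosteroid and growth list leaned to roots, and most of its members fell with age in shoots. The list holds matches to BIM1 and BIM2, partners of the brassinosteroid regulator BES1, to bHLH49, bHLH62, bHLH74, bHLH79 and other relatives of the BEE and CIB factors, and to ILI5, a small rice HLH protein that lacks a DNA-binding basic region. All 16 were tested. At each week 11 were higher (68.8%) and 2 lower (12.5%) in roots, with a median log2 difference of 1.11 at week 2 and 1.28 at week 4. Over all tested genes, 28.4% were higher and 27.7% lower at week 2, and 32.4% and 28.5% at week 4. In shoots 10 fell (62.5% against 19.4% of all tested genes) and 0 rose with age, with a median of -0.78. Of these 10 calls, 7 held under every alternative run. Summed over the list, CPM was 366 ± 14.7 in roots of week 2, 297 ± 20.3 in those of week 4, 220 ± 17.4 in shoots of week 2 and 145 ± 10.8 in those of week 4.

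The most abundant of them per kilobase in roots was the bHLH62 match BdiBd21-3.2G0750700 (chromosome 2, 55952771 to 55956493), with 71.0, 73.4 and 60.9 CPM in week 2 roots, 37.6, 32.5 and 27.3 in week 2 shoots and 20.6, 14.2 and 12.5 in week 4 shoots. It was higher in roots at week 2 (log2 difference 1.08, SE 0.18, adjusted p = 0.000277) and fell in shoots (log2 difference -1.04, SE 0.18, adjusted p = 0.0016). In ageing roots 2 of the list fell (12.5% against 6.35% of all tested genes). The count was 1 to 5 when single libraries were left out (5 without week 4 shoot replicate 1, 1 without any 1 root library). The BIM2 match BdiBd21-3.3G0514200 (chromosome 3, 41336586 to 41342597) had 58.2, 46.7 and 49.8 CPM in roots at week 2 and 34.6, 32.0 and 36.0 at week 4, and it fell in roots (log2 difference -0.59, SE 0.12, adjusted p = 0.00772). The 4 bHLH49 matches differed. The gene BdiBd21-3.4G0460000 (chromosome 4, 38897218 to 38903210) was higher in roots, with 25.1, 20.6 and 22.0 CPM in week 2 roots and 5.33, 5.16 and 3.77 in week 2 shoots (log2 difference 2.24, SE 0.25, adjusted p = 1.22e-05). The gene BdiBd21-3.1G0567500 (chromosome 1, 41854931 to 41858149) did not pass, with 37.7, 34.1 and 34.7 CPM in week 2 roots and 35.6, 34.0 and 33.0 in week 2 shoots (log2 difference 0.05, SE 0.08, adjusted p = 0.595).

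The bHLH63 and bHLH48 matches were the 2 of the list that were lower in roots. The bHLH63 match BdiBd21-3.3G0698900 (chromosome 3, 53591756 to 53594648), named for the Arabidopsis cryptochrome partner CIB1, had 20.7, 18.1 and 21.1 CPM in week 2 shoots and 8.00, 5.25 and 4.31 in week 2 roots (log2 difference -1.76, SE 0.22, adjusted p = 3.44e-05). It overlaps a gene on the other strand by 766 bases, and without a stated strand setting their reads cannot be told apart. The bHLH48 match BdiBd21-3.1G0487000 (chromosome 1, 32028639 to 32036744) had 19.0, 14.7 and 13.8 CPM in week 2 shoots and 7.06, 2.22 and 2.12 in week 4 shoots, a fall (log2 difference -2.05, SE 0.39, adjusted p = 0.00255) that was -2.90 without week 4 shoot replicate 1. The ILI5 match BdiBd21-3.3G0780900 (chromosome 3, 58543142 to 58544731) fell in both organs. It went from 11.9, 13.8 and 9.81 to 3.25, 1.71 and 0.318 CPM in shoots (log2 difference -2.73, SE 0.53, adjusted p = 0.00323; -3.59 without week 4 shoot replicate 1) and from 12.6, 6.86 and 7.96 to 2.61, 2.55 and 3.33 CPM in roots (log2 difference -1.69, SE 0.50, adjusted p = 0.0392). The root call was lost without week 2 root replicates 1, 2 or 3, week 4 root replicates 1, 2 or 3, week 2 shoot replicate 2 or week 4 shoot replicate 2 (adjusted p up to 0.132).

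Most tested vascular factors were higher in roots. TMO5 and its relatives bHLH30, bHLH106 and bHLH107 pair with LONESOME HIGHWAY in Arabidopsis to drive divisions in the young vascular cylinder. Of 6 matches, 5 were tested. In roots, 4 were higher at week 2 (80% against 28.4% of all tested genes) and 5 at week 4 (100% against 32.4%). The gene that did not pass at week 2 was the bHLH30 match BdiBd21-3.2G0431000 (log2 difference -0.09, SE 0.52, adjusted p = 0.893). The untested bHLH30 match BdiBd21-3.3G0506700 had 0 counts in all root libraries and 8, 10 and 5 counts in week 2 shoots. The summed level was 29.0 ± 4.12 CPM in roots of week 2, 25.6 ± 2.49 in those of week 4, 10.6 ± 1.54 in shoots of week 2 and 3.70 ± 1.86 in those of week 4. The bHLH30 match BdiBd21-3.1G0909000 (chromosome 1, 66807092 to 66810820) had 1.41, 0.976 and 1.62 CPM in week 2 shoots and 0.139, 0.114 and 0 in week 4 shoots, while its root values were 7.87, 7.17 and 5.07 and 7.75, 6.65 and 7.92. It fell in shoots (log2 difference -3.86, SE 0.51, adjusted p = 0.000439; -4.49 without week 4 shoot replicate 1) and did not pass in roots (log2 difference 0.15, SE 0.29, adjusted p = 0.759), and the difference between these changes passed (log2 difference 4.01, SE 0.60, adjusted p = 0.00295).

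Matches to reproductive factors ranged from undetected to present in both organs. Of 4 matches to anther factors, 3 were tested. In roots, 2 were higher at week 2 (66.7% against 28.4% of all tested genes) and at week 4 (66.7% against 32.4%). At week 4, 1 was lower (33.3% against 28.5%), the UDT1 match BdiBd21-3.1G0330700 (log2 difference -1.05, adjusted p = 0.0268). That call was lost without week 4 root replicates 2 or 3 or week 4 shoot replicates 2 or 3 (adjusted p up to 0.0988). The TDR match BdiBd21-3.3G0022300 (chromosome 3, 1342314 to 1347302), named for a rice factor of tapetum breakdown, was present throughout, with 14.6, 17.4 and 19.3 CPM in week 2 roots and 10.3, 7.95 and 12.1 in week 2 shoots (log2 difference 0.76, SE 0.18, adjusted p = 0.00332). Its neighbour BdiBd21-3.3G0022400 (chromosome 3, 1348466 to 1352392), also a TDR match, was higher in roots at week 4, with 3.32, 2.25 and 1.43 CPM against 0.186, 0 and 0 in shoots (log2 difference 5.00, SE 0.89, adjusted p = 0.000417), where all counts came from replicate 1 and the value fitted against 0 counts without it was 8.64. The LAX PANICLE match had 0 counts in all 12 libraries and the HEC3 match 5 counts in total, and neither was tested. The genes BdiBd21-3.1G0718100 and BdiBd21-3.1G0718900 on chromosome 1, whose best match is basic helix-loop-helix protein A of pea, a regulator of anthocyanin, had 0 and 4 counts in total and were not tested.

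Outside these lists, a group of root genes matched bHLH18, bHLH19 and bHLH25, which in Arabidopsis promote the breakdown of FIT under jasmonate. The bHLH25 match BdiBd21-3.1G0137000 (chromosome 1, 7481076 to 7483723) had 59.1, 59.3 and 56.4 CPM in roots at week 2 and 45.6, 48.9 and 57.1 at week 4, against 14.3, 11.9 and 10.5 and 2.37, 2.22 and 3.76 in shoots. It was higher in roots at both weeks (week 4 log2 difference 4.18, SE 0.20, adjusted p = 2.05e-08) and fell in shoots (log2 difference -2.13, SE 0.19, adjusted p = 0.000105). The bHLH18 match BdiBd21-3.3G0299100 (chromosome 3, 20887114 to 20890050) had 22.3, 32.5 and 31.2 CPM in week 4 roots and 1.07, 0.455 and 0.424 in week 4 shoots (log2 difference 5.42, SE 0.38, adjusted p = 2.75e-07). The bHLH19 match BdiBd21-3.1G0931600 (chromosome 1, 68252046 to 68254151) had 4.52, 5.30 and 3.71 CPM in week 4 roots and 0 counts in all week 4 shoots (at least 87.1-fold, adjusted p = 2.97e-05). This group is not a role list, and some of its genes were named for their high root to shoot difference. Of the 7 genes with these best matches, 6 were higher in roots at each week, beside 28.4% of all tested genes at week 2 and 32.4% at week 4. At week 4, 1 bHLH25 match was lower in roots, beside 28.5% of all tested genes.

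That exception lies in a row of bHLH25 matches on chromosome 1. The genes BdiBd21-3.1G0170300, BdiBd21-3.1G0170500 and BdiBd21-3.1G0170600 occupy 9788756 to 9832795. The first had 9.53, 6.48 and 6.54 CPM in week 2 roots and 2.97, 3.86 and 4.10 in week 2 shoots, and the second 13.4, 12.6 and 9.99 and 0.553, 0 and 0.216. The last had 0.581, 0.301 and 0.337 CPM in week 4 roots and 0.883, 1.82 and 1.27 in week 4 shoots (log2 difference -1.69, SE 0.53, adjusted p = 0.0154), a call lost without week 4 root replicates 2 or 3 or week 4 shoot replicate 2 (adjusted p up to 0.0589). Neighbours with the same best match therefore ranged from nearly root-bound (BdiBd21-3.1G0170500 at week 2, log2 difference 5.54, SE 0.62, adjusted p = 1.43e-05) to higher in shoots. The value for BdiBd21-3.1G0170500 was 6.79 without week 2 shoot replicate 1 and 4.89 without week 2 shoot replicate 2. Over the genome, 11 groups of members lay within 100 kb of each other.

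Among relatives of the stomatal factors in the same subgroup, matches to bHLH70 and bHLH96 differed between the organs. The bHLH70 match BdiBd21-3.1G1027100 (chromosome 1, 74068335 to 74072209) had 0 counts in all root libraries, 14.2, 12.6 and 10.1 CPM in week 2 shoots and 3.39, 1.88 and 0.477 in week 4 shoots. It was higher in shoots at week 2 (at least 282-fold, adjusted p = 0.00016), and its fall in ageing shoots (log2 difference -2.67, SE 0.59, adjusted p = 0.0129) was lost without week 4 shoot replicate 2 (adjusted p = 0.0503) and was -3.43 without week 4 shoot replicate 1. The bHLH96 match BdiBd21-3.1G0968400 (chromosome 1, 70548845 to 70551592) showed the opposite organ pattern, with 21.5, 6.71 and 8.47 CPM in roots of week 2, 4.89, 5.86 and 3.49 in those of week 4, 0.603, 0.465 and 0.485 in shoots of week 2 and 0 counts in those of week 4. It was higher in roots at week 4 (at least 91.8-fold, adjusted p = 1.98e-05) and fell in shoots (at least 10.0-fold, adjusted p = 0.00615). A second bHLH96 match, BdiBd21-3.3G0691200 (chromosome 3, 53102750 to 53106298), was higher in shoots at week 2, with 6.38, 6.55 and 5.23 CPM against 2.54, 1.88 and 2.59 in roots. That call (log2 difference -1.38, SE 0.45, adjusted p = 0.0206) was lost on leaving out week 2 root replicate 2 or week 2 shoot replicate 2 (adjusted p up to 0.0745).

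Further shoot genes matched bHLH137 and bHLH41. The bHLH137 match BdiBd21-3.4G0484900 (chromosome 4, 40547902 to 40550020) had 0 counts in all root libraries, with 9.75, 6.69 and 4.69 CPM in week 2 shoots and 5.20, 1.71 and 0.741 in week 4 shoots (week 2 at least 161-fold, adjusted p = 0.000634). Its relative BdiBd21-3.2G0508400 (chromosome 2, 39443726 to 39446293) had 8.39, 7.67 and 7.33 CPM in week 2 shoots and 0.175, 0.0767 and 0.304 in week 2 roots (log2 difference -5.41, SE 0.50, adjusted p = 2.22e-06). All 3 bHLH41 matches were lower in roots at both weeks, beside 27.7% of all tested genes at week 2 and 28.5% at week 4. One of them, BdiBd21-3.1G0508100 (chromosome 1, 33785529 to 33788133), had 0 counts in every root library and 3.07, 1.20 and 3.23 CPM in week 4 shoots (at least 62.0-fold, adjusted p = 0.00064).

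Other abundant root genes had no listed role. The bHLH51 match BdiBd21-3.2G0091200 (chromosome 2, 5350768 to 5352726) had 65.2, 99.9 and 104 CPM in roots at week 2 and 191, 182 and 135 at week 4, against 32.9, 26.5 and 34.4 and 32.7, 45.7 and 36.4 in shoots. It was higher in roots at week 4 (log2 difference 2.15, SE 0.21, adjusted p = 3.68e-06) and rose with age in roots (log2 difference 0.92, SE 0.20, adjusted p = 0.0094). Per kilobase it ranked 3 among members in week 2 roots and 2 in week 4 roots, at 51.2 and 96.9 CPM per kilobase. A second bHLH51 match, BdiBd21-3.2G0049800 (chromosome 2, 2709809 to 2711905), had 43.3, 35.5 and 30.4 CPM in week 4 roots and 0.557, 0.114 and 1.06 in week 4 shoots (log2 difference 5.95, SE 0.60, adjusted p = 8.71e-06; 6.62 without week 4 shoot replicate 3).

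From week 2 to week 4, more bHLH genes fell than rose in shoots, and most did not pass the test in roots. In shoots, 53 of the 97 tested members passed (54.6% against 33.9% of all tested genes), 39 lower at week 4 (40.2% against 19.4%) and 14 higher (14.4% against 14.5%). The median log2 change was -0.76, beside 0 over all tested genes. In roots, 18 members passed (18.6% against 18.8%), 10 higher (10.3% against 12.4%) and 8 lower (8.25% against 6.35%), with a median of -0.20 beside 0.05. The libraries of the weeks did not overlap for 60 members in shoots (61.9% against 49.0%) and for 42 in roots (43.3% against 42.4%). Without week 4 shoot replicate 1, 49 members passed in shoots, 37 of them lower. Within week 4 shoots, that library was the highest of the 3 in 25 of the 39 members that fell and the lowest in 11 of the 14 that rose.

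**Figure D5:**
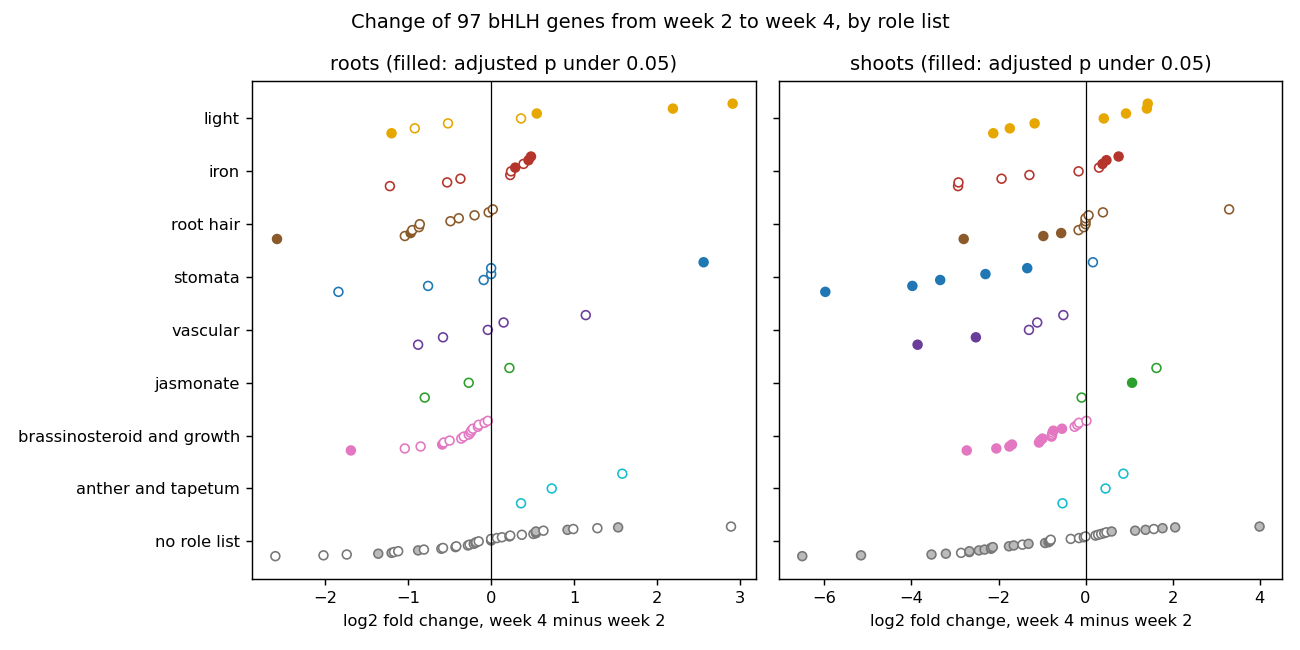
Log2 fold change from week 2 to week 4 of the 97 tested bHLH genes in roots (left) and shoots (right), 1 point per gene in rows by role list, filled where the adjusted p is under 0.05. In shoots the filled stomatal, vascular and brassinosteroid points all lie below 0 and the filled iron and jasmonate points above 0, while light genes lie on both sides. Genes at 0 counts in both weeks are drawn at 0.

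Outside the role lists, 16 of 37 tested members fell in ageing shoots (43.2% against 19.4% of all tested genes). The 6 that rose were near the share over all genes (16.2% against 14.5%). The bHLH93 match BdiBd21-3.1G0400000 (chromosome 1, 25745023 to 25747822), named for an Arabidopsis factor that promotes flowering in short days, had 18.2, 16.0 and 13.8 CPM in week 2 shoots and 3.53, 0.171 and 0.265 in week 4 shoots. It fell (log2 difference -3.54, SE 0.72, adjusted p = 0.00466), with a change of -6.19 without week 4 shoot replicate 1, and the call was lost when the shoot libraries were fitted alone (adjusted p = 0.053). In roots it had 11.1, 14.2 and 13.1 and 9.62, 11.8 and 10.1 CPM. The bHLH35 match BdiBd21-3.5G0066700 (chromosome 5, 6729324 to 6733131) rose most, from 4.98, 4.55 and 1.83 CPM in week 2 shoots to 30.0, 33.1 and 120.2 in week 4 shoots (log2 difference 4.00, SE 0.98, adjusted p = 0.0117; 3.01 without week 4 shoot replicate 3). Its libraries were uneven in roots as well, at 24.4, 8.89 and 13.8 CPM at week 2 and 2.03, 5.97 and 26.9 at week 4. The bHLH128 match BdiBd21-3.2G0740000 (chromosome 2, 55384020 to 55387932) rose from 33.2, 19.6 and 30.0 to 87.5, 87.9 and 106 CPM in shoots (log2 difference 1.77, SE 0.18, adjusted p = 0.000159). It overlaps a gene on the other strand by 837 bases, whose reads cannot be told apart from its own without a stated strand setting.

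In roots, the highest of the called rises that the naming rule took were those of the PIF1, ICE1, UNE10 and APG matches whose root values are given above, and the bHLH51 match BdiBd21-3.2G0091200 followed. The UNE12 match BdiBd21-3.1G0071400 (chromosome 1, 3738137 to 3743478) rose from 39.5, 46.2 and 47.9 to 71.3, 61.0 and 62.2 CPM in roots (log2 difference 0.54, SE 0.10, adjusted p = 0.00395). Its shoot values were 27.2, 27.5 and 29.3 and 26.7, 29.8 and 27.8, and these groups overlapped. Among the falls, the bHLH130 match BdiBd21-3.4G0469500 (chromosome 4, 39542132 to 39547335), related to an Arabidopsis activator of CONSTANS, went from 11.5, 9.97 and 8.26 to 4.60, 5.60 and 5.94 CPM (log2 difference -0.88, SE 0.17, adjusted p = 0.00485). The bHLH94 match BdiBd21-3.4G0455800 (chromosome 4, 38493355 to 38495809) went from 4.63, 3.07 and 2.99 to 1.37, 1.54 and 1.73 CPM (log2 difference -1.20, SE 0.32, adjusted p = 0.0248), a call lost on leaving out week 2 root replicate 1 or week 4 root replicates 1 or 2 (adjusted p up to 0.101). The bHLH96 match BdiBd21-3.1G0968400 fell in roots as well (log2 difference -1.36, SE 0.42, adjusted p = 0.0485), with 21.5 CPM in week 2 root replicate 1 and a change of -0.67 without it. That call was lost when any of week 2 root replicate 1, the 3 week 4 roots or the 3 week 2 shoots was left out, and when the root libraries were fitted alone (adjusted p up to 0.177). Of the 18 calls in roots, 9 held under every alternative run, and the count was 10 without any 1 of week 2 root replicate 1 and week 4 root replicates 1 and 2, 11 without replicate 2 of the week 2 roots, and 24 without replicate 1 of the week 4 shoots.

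Changes with age were rarely opposed between the organs. In both organs 6 members rose (6.19% against 4.86% of all genes) and 3 fell (3.09% against 4.03%). The change in roots differed from that in shoots for 9 of 97 members (9.28% against 8.52% of all tested genes), 7 with the higher change in roots (7.22% against 6.56%) and 2 with the higher change in shoots (2.06% against 1.95%), so the share was near that over all genes. This count was 19 without week 4 shoot replicate 1 and 5 without week 4 root replicate 2, and the DESeq2 test called 23.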

How the data were processed

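RNA-seq was run on 12 libraries of Brachypodium distachyon Bd21-3 roots and shoots. The authors deposited raw read counts per gene, with positions, lengths and best-match descriptions in the same table. The submitters' processing notes name HISAT2 2.0.5, featureCounts 1.5.0-p3 and HTSeq 0.6.1 without giving their roles. Neither the build of the genome, nor the strand setting, nor the rule for reads with several matches is given in the sources used here, and per the labels the library preparation was either directional or non-directional.

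The tests ran in edgeR 4.0.16 under R 4.3.3. The filter on low counts was filterByExpr over the 4 groups (minimum count 10, minimum total 15). Scaling used TMM, and CPM is per 1e6 of the scaled library size. All 12 libraries entered 1 robust quasi-likelihood fit of 4 group means, with a prior count of 0.125. P-values were two-sided and adjusted by Benjamini-Hochberg over 26463 genes, and an adjusted p under 0.05 is a call. A standard error is the size of the log2 difference divided by the square root of F, and they can be too small against groups with few counts. Folds against a group at 0 used a floor of 3 counts over the group, and ratios against 1 to 3 counts have 95% exact binomial intervals. Both cover counting error only, with counts summed over the libraries of a group. They leave out the spread between replicates, and PCR copies were not marked. The script was tested on simulated counts.

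Named genes are the 5 highest and 5 lowest called changes per contrast (average log2 CPM of at least 1 and, except for the interaction, no overlap), the top 3 per kilobase in each group, and the role lists by best-match name. Others were added as relatives, neighbours or exceptions after their values were seen. The members and lists were chosen with earlier results of these data known. Replicates of a group differed beyond sampling noise (chi-square per degree of freedom 6.93 to 35.8), so none was counted as a repeat.

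The alternatives were RLE and upper-quartile scaling, no low-count filter, CPM above 1 in 3 libraries, DESeq2 1.42.0, a fit without the groups not compared, a block for the replicate number, and leaving out each library.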

Additional observations from a re-analysis of the deposited data

Results flagged for a closer look

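For 9 members the change from week 2 to week 4 in roots differed from that in shoots by the test of the difference itself (edgeR quasi-likelihood test of the interaction, adjusted over all tested genes). The values below are the log2 change in roots minus the log2 change in shoots. The median of this difference over all tested genes was 0.11.

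The change of the ICE1 match BdiBd21-3.4G0254800 was higher in roots by 4.86 (adjusted p = 0.00963), where it rose in roots and fell in shoots and the weeks overlapped in neither organ. That of the bHLH30 match BdiBd21-3.1G0909000 was higher by 4.01 (adjusted p = 0.00295), and that of the bHLH51 match BdiBd21-3.2G0049800 by 3.59 (adjusted p = 0.0175). The bHLH51 match had 9.57, 18.1 and 17.4 CPM in roots of week 2, 43.3, 35.5 and 30.4 in those of week 4, 4.22, 1.21 and 3.39 in shoots of week 2 and 0.557, 0.114 and 1.06 in those of week 4. The bHLH137 match BdiBd21-3.3G0548900 (chromosome 3, 43384178 to 43386574) followed with 2.75 (adjusted p = 0.0193), which was lost without week 4 root replicate 2 (adjusted p = 0.0518). It had 1.44, 1.46 and 1.57 CPM in roots of week 2, 3.28, 3.76 and 1.85 in those of week 4, 11.6, 8.69 and 8.89 in shoots of week 2 and 4.65, 2.90 and 1.01 in those of week 4.

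The bHLH18 match BdiBd21-3.3G0299100 had a difference of 1.94 (adjusted p = 0.0338). This was lost with the replicate number as a block and without 7 of the libraries in turn (adjusted p up to 0.0822), among them week 2 root replicates 1 and 2. The bHLH25 match BdiBd21-3.1G0137000 had 1.93 (adjusted p = 0.00166), where shoots fell and root libraries of the weeks overlapped. The UNE12 match BdiBd21-3.1G0071400 had 0.54 (adjusted p = 0.0368). This was lost without 9 of the libraries in turn, under upper-quartile scaling and with the replicate number as a block (adjusted p up to 0.0818).

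In 2 members the change was higher in shoots. The MYC2 match BdiBd21-3.3G0448400 had -0.85 (adjusted p = 0.0396), lost without 9 of the libraries in turn (adjusted p up to 0.0886). The bHLH128 match BdiBd21-3.2G0740000 had -1.40 (adjusted p = 0.0071), with 56.6, 51.5 and 55.5 CPM in roots at week 2 and 81.2, 59.9 and 69.6 at week 4 beside its rise in shoots. The causes of these differences were not tested.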

How the results depend on the processing

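No call of a member changed sign under any alternative run. Of the calls, 61 of 73 between organs at week 2, 64 of 79 at week 4, 9 of 18 in ageing roots, 30 of 53 in ageing shoots and 5 of 9 interactions held under every alternative that tested the gene. Leaving out each library in turn gave 64 to 73 called members at week 2, 67 to 80 at week 4, 10 to 24 in ageing roots, 37 to 53 in ageing shoots and 5 to 19 for the interaction. The count in ageing roots was 10 when week 2 root replicate 1, or replicate 1 or 2 of the week 4 roots, was left out, and 11 without week 2 root replicate 2. The interaction count was 5 without week 4 root replicate 2, 19 without week 4 shoot replicate 1, and 23 in the DESeq2 test. The split in ageing roots, 10 higher and 8 lower, was 9 and 16 in the DESeq2 test, 9 and 18 when the root libraries were fitted alone, and 8 and 16 without week 4 shoot replicate 1. The cause of these shifts was not tested. With the replicate number as a block, 73, 77, 13, 53 and 7 members passed in the same order of contrasts, and the UNE12 and bHLH18 interactions were the 2 lost. Residuals of same-numbered libraries of different groups correlated at -0.121 to 0.179, over 0.1 in 4 of 18 pairs. Those of libraries with other numbers correlated at -0.159 to 0.174, over 0.1 in 4 of 36 pairs. Correlations this weak cannot decide whether the numbers pair the samples, and the labels describe different plants per replicate. Members with few counts are limited by depth, so for them 0 counts in a group means under the floor of 3 counts.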
